A study of Mus musculus with 8 samples.

Results

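Guides against 10 enzymes that build or trim glycans and glycosylphosphatidylinositol (GPI) anchors were followed in tumour-infiltrating OT-I T cells by CROP-seq, a method that reads the transcriptome and the CRISPR guide of the same single cell. The targets were Alg12, Man1a2, B3gnt2, B3gnt4, St3gal4, Tgds, Uxs1, Hpse, Pigz and Pigp, each with 3 guides. OT-I T cells are CD8+ T cells with a transgenic receptor for an ovalbumin peptide. Here they came from a Rag2/OT-I line crossed to Rosa26-Cas9 animals, so that every group, controls included, expressed Cas9 and carried a lentiviral guide together with the surface marker CD90.1. Transduced cells, enriched for CD90.1 on magnetic beads just before transfer, were infused into Cas9 knock-in mice with orthotopic KPC_OVA tumours. KPC_OVA is a pancreatic ductal adenocarcinoma cell line engineered to express ovalbumin. CD90.1+ cells were sorted from the primary tumour 7 days later. The mice received anti-PD-1 antibody (3 libraries, replicates 1 to 3) or IgG (1 library). The sources do not say which mice each library came from, and replicates 1 and 2 share a title stem. The paper names 2 independent experiments, which the labels do not tie to libraries. The p-values for guide share measure the spread between libraries. Those for expression measure how differences from sgNT varied between libraries, with a spread shared over all targets. Either spread may be technical. The study chose its metabolic candidate genes from an earlier screen for guides that accumulated in OT-I T cells of the same model.

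A cell was assigned to a target when exactly 1 guide was called in it, the guide named that target, and mitochondrial genes held at most 10% of its UMIs (unique molecular identifiers, each a counted mRNA molecule). Of 23337 such cells, 2990 (12.8%) carried a guide against the 10 enzymes. These were 381, 334 and 774 cells in anti-PD-1 replicates 1, 2 and 3 and 1501 cells in IgG. The controls were 2730 cells with 1 of 34 nontargeting guides, together called sgNT. All 30 guides against the 10 enzymes were found, in 14 to 259 cells each. Cells with a guide against a gene are named by the gene, as in sgAlg12.

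The median depth fell from 16744.5 UMIs per cell in replicate 1 to 6298 in IgG, so each target was compared with the sgNT cells of its own library. Cd3d, Cd3e, Cd8a, Cd8b1, Trac and Thy1, which mark CD8+ T cells, each had a UMI in 89.2% to 100% of the cells of every library. Libraries shared 30 to 93 barcodes pairwise, of which at most 2 had the same single guide. The guide call rested on 1 guide UMI in 27.2%, 23.4% and 14.3% of the cells of replicates 1, 2 and 3 and in 7.38% of the IgG cells. By target this share went from 2.60% in sgAlg12 to 32.7% in sgB3gnt4, against 13.8% in sgNT. For expression, 198 cells in which markers of other cell types summed to 10 UMIs or more were not used.

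An N-glycan is preassembled on the lipid dolichol in the membrane of the endoplasmic reticulum (ER), transferred to new proteins, and then trimmed and extended on the way through the Golgi apparatus. Trimming states of the glycan are read by lectin chaperones and by the degradation machinery, which ties glycan assembly to protein folding in the ER. A GPI anchor is a glycolipid, built in the same membrane, that holds proteins such as Thy1 on the outer face of the cell. Alg12 adds a mannose to the dolichol-linked precursor. Man1a2 is a Golgi mannosidase that removes mannoses from the transferred glycan. B3gnt2 and B3gnt4 extend poly-N-acetyllactosamine chains, and St3gal4 caps galactose with sialic acid. Uxs1 makes UDP-xylose, the sugar donor that starts glycosaminoglycan chains, and Tgds is named as a dTDP-glucose 4,6-dehydratase. Hpse is heparanase, which cleaves heparan sulfate. Pigp belongs to the enzyme complex of the first step of GPI synthesis, whereas Pigz adds an optional side mannose.

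Guides of the 4 targets that the results turn on most are shown with their position in GRCm38 (the build called mm10), read from GENCODE M21. Capitals mark the protospacer-adjacent motif, the 3 bases beside the guide that Cas9 requires. The Alg12 guides, whose cells among the 10 targets differed most from sgNT in the genes of ER protein folding, lay on chr15:88814502-88814521 in exon 5, chr15:88815892-88815911 in exon 3 and chr15:88811487-88811506 in exon 7 of the 10 exons of the principal transcript. They cut at 42.3%, 17% and 54.1% of its coding sequence.
Alg12_gRNA1: gtaccaaagaagactgacggTGG
Alg12_gRNA2: aagcgagagcacataaaccaCGG
Alg12_gRNA3: gggctgagtagaaataccacAGG
The Man1a2 guides, in whose cells the test of the targeted mRNA came nearest to the threshold among the 10 targets, lay at the first edge of exon 7 (the last 18 bases on chr3:100620135-100620152), on chr3:100652595-100652614 in exon 3 and on chr3:100644549-100644568 in exon 5 of 13 exons. Their cuts fell at 50.2%, 31.0% and 43.2% of the coding sequence.
Man1a2_gRNA1: agtggagtaggtcgaaactgGGG
Man1a2_gRNA2: aattacagaacatacggatgGGG
Man1a2_gRNA3: ctgacaggtaatatgcagcgAGG
The Uxs1 guides, found in the most cells, lay on chr1:43771769-43771788 in exon 9, on chr1:43764941-43764960 in exon 10 and at the first edge of exon 6, where the last 8 bases covered chr1:43790637-43790644. Exons 9 and 10 were cut at 51.9% and 64.4% of the coding sequence.
Uxs1_gRNA1: cctcaaagtgaggactactgGGG
Uxs1_gRNA2: gaatgcacatgaatgatgggCGG
Uxs1_gRNA3: tgtccaatacagatcactggAGG
The Pigp guides, found in the fewest cells among the 10 targets, lay at the first edge of exon 3 of 5 (the last 15 bases on chr16:94367619-94367633), on chr16:94365469-94365488 and on chr16:94365365-94365384 in exon 4. The guide in exon 4 also matched a transcript of Gm9001 beside the same kind of motif.
Pigp_gRNA1: tgcagtactttatcttgtgtGGG
Pigp_gRNA2: aattctcttgtgcagatactGGG
Pigp_gRNA3: atgaatggagtcaagtggagAGG
Each of the other guides matched its own target beside such a motif. Those of B3gnt2 and B3gnt4 also matched transcripts of the overlapping genes Gm28048 and Diablo.

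How often a guide was met among the sorted cells was expressed as its number of cells over that of the median nontargeting guide of the same library. The 10 targets spanned nearly the whole range of the 84 targets of the library. Over the cells of all libraries Pigp shared rank 4 from the bottom with Pigw, and Uxs1 had rank 82, below 2 targets with 1 guide each. These values have no test, because counts of the guides before transfer were not analysed here. Accumulation or loss in culture or in the tumour, unequal delivery, and selection for CD90.1 before transfer or in the sort therefore cannot be told apart.

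Uxs1, the UDP-xylose synthase, had 61, 71 and 133 cells in anti-PD-1 replicates 1, 2 and 3 and 331 cells in IgG. Per guide this was 2.71, 2.96, 2.11 and 2.98 times the median nontargeting guide, a mean of 2.69 ± 0.41 (SD, n = 4 libraries). Its ratio was above 2 in every library. In IgG, the library with the most cells, the 3 Uxs1 guides had 96, 119 and 116 cells, while the 34 nontargeting guides had 16 to 64. In IgG 29 of all 246 targeting guides (11.8%) and 8 of the 30 described here had more cells than every nontargeting guide. In replicates 1, 2 and 3 none of the 30 did (0%, 0% and 0.813% of the 246), where the highest nontargeting guide had 63, 105 and 64 cells. In replicates 1 and 2 this was 1 nontargeting guide that held 19.5% and 27.7% of the sgNT cells. Uxs1_gRNA3 was less even, with 6 cells each in replicates 1 and 2, 42 in replicate 3 and 116 in IgG.

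Tgds had 89, 78, 106 and 199 cells in the same order, or 3.96, 3.25, 1.68 and 1.79 times the median nontargeting guide per guide (mean 2.67 ± 1.12, SD, n = 4). One guide, Tgds_gRNA3, supplied 259 of the 472 cells and had 48, 67, 58 and 86 of them. The other 2 Tgds guides were below the median nontargeting guide in replicate 2 and at or above it in the other libraries. Replicates 1 and 2 had the higher ratios of Tgds. There, 22 of 48 and 34 of 67 cells of Tgds_gRNA3 rested on 1 guide UMI, and in replicate 1 also 13 of 22 and 11 of 19 cells of the other 2 guides, while in replicate 3 and IgG 0 cells of the 3 guides did. B3gnt2, the chain-extending enzyme, had 47, 35, 136 and 193 cells, with ratios of 2.09, 1.46, 2.16 and 1.74 (mean 1.86 ± 0.33, SD, n = 4). The means of Uxs1 and Tgds differed by less than the SD of either. Over the cells of all libraries together the ratios were 2.63 for Uxs1, 2.08 for Tgds and 1.815 for B3gnt2. Among those with at least 5 guide UMIs, a stricter limit chosen after seeing the data, they were 2.86, 2.15 and 2.37.

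Man1a2, B3gnt4, Hpse, Alg12, Pigz and St3gal4 were near the nontargeting guides, with ratios of 1.20, 1.19, 1.12, 1.02, 0.949 and 0.945 over the cells of all libraries. The ranges of these 6 over the libraries overlapped. The ratio of B3gnt4 was 2.62 in replicate 1 and 0.889 to 1.14 elsewhere, and B3gnt4_gRNA3 alone had 40 of its 59 cells in replicate 1. Over cells with at least 5 guide UMIs the ratio of B3gnt4 was 0.765, and 0.476 to 1.22 in the single libraries.

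Pigp was the rarest of the 10 targets, with 4, 7, 14 and 31 cells and ratios of 0.178, 0.292, 0.222 and 0.279 (mean 0.243 ± 0.053, SD, n = 4). Over the cells of all libraries together the ratio was 0.247, and with at least 5 guide UMIs per cell it was 0.358. Its 3 guides had 25, 17 and 14 cells over all libraries, each fewer than the 32 cells of the rarest nontargeting guide, as was so for 23 of the 246 targeting guides (9.35%). Other enzymes of GPI anchor synthesis were also rare, with ratios of 0.181 for Pigc, 0.212 for Pigf, 0.247 for Pigw, 0.371 for Pigx and 0.375 for Pigm. Dpm2, a subunit of the enzyme that makes the mannose donor of both GPI anchors and N-glycans, had 0.653, and over cells with at least 5 guide UMIs it equalled the median nontargeting guide. Pigz, the GPI enzyme of the side mannose, was at 0.949 and, with that limit, at 1.05. Thy1 mRNA, which encodes a GPI-anchored protein, was at 379.7, 318, 437.5 and 382 CPM (a gene's share of the summed UMIs, on the counts-per-million scale) in sgPigp and at 426, 422.5, 476 and 435 CPM in sgNT. It was also below sgNT in all 4 libraries in sgAlg12, sgTgds and sgUxs1. CD90.1 is the form of Thy1 that the vector carries. Whether its mRNA is among these counts was not tested, and surface protein was not measured.

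To ask whether treatment changed the share of a guide, cells per guide were compared between anti-PD-1 and IgG by edgeR's quasi-likelihood test over all 272 guides with at least 10 cells. No guide passed an adjusted p of 0.05 (0% of the 272), the 30 described here included, with the 1 IgG library assumed to vary like the others. Cells per guide were not alike in the 3 anti-PD-1 libraries. Over the 280 guides Spearman's rho was 0.753 between replicates 1 and 2, 0.331 and 0.366 of these with replicate 3, and 0.539 between replicate 3 and IgG, values that share the guide pool. The part of this split in the test was not tested, and without replicate 3 there were 57 guides at an unadjusted p under 0.05, 4 of them of the 30. At an unadjusted p under 0.05 there were 9 guides and 0 of the 30, and DESeq2 called 0 guides, with 4 at an unadjusted p under 0.05. The lowest p of the 30 belonged to Uxs1_gRNA3, which held 0.235%, 0.229% and 0.643% of the cells in replicates 1, 2 and 3 and 0.997% in IgG. Its log2 ratio of anti-PD-1 to IgG was -1.35 ± 0.77 (SE, adjusted p = 0.9899).

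The targeted mRNA was then measured in its own cells. A frameshift need not lower an mRNA that is counted at its 3′ end, so this is a partial check of the labels. Man1a2 was at 32.5, 21.9, 38.9 and 26.5 CPM in sgMan1a2 in anti-PD-1 replicates 1, 2 and 3 and IgG, and at 50.7, 53.4, 53.1 and 56.5 CPM in sgNT. All 4 values were below all 4 control values, at a log2 fold change of -0.79 ± 0.17 (SE, edgeR, adjusted p = 0.0514, which missed 0.05). On the sums of the 10 targets and sgNT alone the adjusted p was 0.177 by edgeR and 0.0431 by DESeq2, and over the alternatives with sums per target it went from 0.00209 with no filter on low counts to 0.76 without replicate 2. With sums per guide it was 0.00101, but guides of 1 library are not independent replicates. The guides shown above gave 0.620, 0.509 and 0.591 times the UMIs expected from sgNT, while single nontargeting guides gave 0.716 to 1.38. Of 9795 genes tested, Man1a2 was the only one (0.0102%) for which all 3 of these guides lay below all 34 nontargeting guides.

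Uxs1 mRNA was at 14.6, 13.9, 10.1 and 12.5 CPM in sgUxs1 and at 19.3, 17.6, 26.9 and 20.1 CPM in sgNT. Again the 4 values were below the 4 control values, although the fit gave -0.76 ± 0.19 (SE, edgeR, adjusted p = 0.348). Uxs1_gRNA1 and Uxs1_gRNA3 gave 0.459 and 0.326 times the expected UMIs, below the 0.620 of the lowest nontargeting guide, and Uxs1_gRNA2 gave 0.819. St3gal4 mRNA differed by -0.48 ± 0.22 (SE, edgeR, adjusted p = 0.999) in its own cells and Pigp by -0.35 ± 0.32 (SE, adjusted p = 0.852). B3gnt2 and Tgds were not lower, with log2 fold changes of 0.19 ± 0.13 and 0.24 ± 0.21 (SE). None of the 6 targeted genes that could be tested passed, so that the guide labels of most targets have no check at the level of the mRNA.

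The other targeted genes were too low to test. Alg12 had 17 UMIs in 16 of 226 sgAlg12 cells, at 6.16, 0, 7.30 and 7.77 CPM against 3.19, 3.73, 4.63 and 3.51 CPM in sgNT. Hpse had no UMI in 252 sgHpse cells, against 1.51, 1.29, 1.74 and 1.21 CPM in sgNT. At the sgNT level 1.25, 1.23 and 1.09 UMIs were expected for the 3 guides, and the difference was not tested. B3gnt4 and Pigz had no UMI in their own cells and at most 0.549 CPM in sgNT.

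Expression was compared between the cells of each target and sgNT in 1 fit over all targets, with the library as a covariate, by edgeR's quasi-likelihood test on UMI counts summed per target and library. Of the 82 targets tested, 51 (62.2%) had at least 1 gene past an adjusted p of 0.05. Among the 10 glycan and GPI targets 3 had any, Alg12 with 7 genes (0.0715% of 9795 genes), Pigp with 5 (0.051%) and St3gal4 with 1 (0.0102%). For Man1a2, B3gnt2, B3gnt4, Tgds, Uxs1, Hpse and Pigz the count was 0 (0%), with 298 to 478 genes at an unadjusted p under 0.05. All targets share the same sgNT cells.

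In sgAlg12 7 genes passed, 4 of them from the ER folding list, of which 23 genes were tested. All 7 were higher: Sdf2l1, Pdia6, Manf and Hspa5, which are ER folding genes, Sec61b, a subunit of the channel through which new proteins enter the ER, the ribosomal protein gene Rpl10, and Krt17. The UMIs of Krt17 came from 1 cell, so it is not described further. Hspa5, the main ER chaperone (BiP), was at 648, 765, 724 and 688 CPM in sgAlg12 in replicates 1, 2 and 3 and IgG, and at 453, 501, 514 and 508 CPM in sgNT. The lowest sgAlg12 value lay above the highest control value, and the log2 fold change was 0.54 ± 0.13 (SE, edgeR, adjusted p = 0.0379).

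Pdia6, a protein disulfide isomerase, was at 325, 379, 300.1 and 249 CPM in sgAlg12 against 202, 216, 195 and 183 CPM. Its log2 fold change was 0.67 ± 0.13 (SE, edgeR, adjusted p = 0.00062). Sdf2l1, an ER protein that works with the BiP system, was at 229, 234.5, 143 and 139.8 CPM against 128, 145, 98.7 and 98.2 CPM. It was higher in sgAlg12 within each library, while the values of replicate 3 and IgG lay below the control of replicate 2. The log2 fold change was 0.68 ± 0.12 (SE, edgeR, adjusted p = 0.000235). Manf, a secreted ER stress protein, was at 371, 420, 318 and 255 CPM against 275, 292, 219 and 229.9 CPM. It was likewise higher within each library with overlap between libraries (log2 fold change 0.45 ± 0.10, SE, edgeR, adjusted p = 0.0261).

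Sec61b was at 808, 883, 769 and 715 CPM in sgAlg12 and at 622, 667, 614 and 603 CPM in sgNT. The groups did not overlap, and the log2 fold change was 0.36 ± 0.067 (SE, edgeR, adjusted p = 0.000501). Rpl10 was at 2951, 2626, 2304 and 2383 CPM against 2391, 2265, 1806 and 1937 CPM (0.32 ± 0.057, SE, edgeR, adjusted p = 0.000235). Both differences were smaller than those of Sdf2l1 and Pdia6 and, like them, were seen in 4 of 4 libraries.

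By guide, all 3 Alg12 guides lay above the nontargeting guides for some of these genes and 2 of 3 for others. Pdia6 was at 1.35, 1.80 and 1.46 times the UMIs expected from sgNT in the cells of guides 1, 2 and 3, while single nontargeting guides gave 0.749 to 1.31. For Hspa5 the ratios were 1.38, 1.51 and 1.32, against 0.734 to 1.25. For Sdf2l1 they were 1.63, 1.62 and 1.33, the last within the nontargeting range of 0.642 to 1.37. For Manf they were 1.34, 1.42 and 1.22, the last again within the range of 0.818 to 1.30. Over all 9795 genes the 3 guides lay above all 34 nontargeting guides for 5 genes (0.051%), namely Hspa5, Pdia6, Sec61b, Rpl10 and Sec61g, a further subunit of the same channel. The calls rested in part on anti-PD-1 replicate 1. Without that library 0 of the 9815 genes tested passed in sgAlg12 by edgeR, with 403 at an unadjusted p under 0.05, and Sdf2l1, Pdia6 and Sec61b had an adjusted p of 0.0589. Their log2 fold changes were then 0.58, 0.64 and 0.33. Without replicate 2, Sdf2l1, Pdia6, Sec61b and Rpl10 passed. Without replicate 3, Sdf2l1, Pdia6, Rpl10 and the 1-cell gene Krt17 passed, and Sec61b had an adjusted p of 0.0617. Hspa5 and Manf passed in neither fit, nor without IgG, where their adjusted p were 0.442 and 0.0539 by edgeR.

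The ER folding and unfolded protein response list held 26 genes, of which 23 were tested. In sgAlg12 4 of them were called higher and 0 lower, and 22 of 23 had a log2 fold change above 0. In the other targets described here this number went from 6 in sgHpse to 20 in sgB3gnt2. Over all 82 targets it went from 3 in sgMgst1 to 22 in sgAlg12 and sgDpm2. The median over the 23 genes in sgAlg12 was 0.30, against 0.01 over all genes. At an unadjusted p under 0.05, 16 were higher (against 2.83% of all genes) and 15 were higher in all 4 libraries (against 5.75%). Pdia3, another disulfide isomerase, missed the threshold at 0.34 ± 0.08 (SE, edgeR, adjusted p = 0.0503). Herpud1, which serves ER-associated degradation, had 0.55 ± 0.18 (SE, edgeR, adjusted p = 0.641). The lectin chaperones Calr and Canx had small values of 0.20 ± 0.10 and 0.25 ± 0.10 (SE), Xbp1, a transcription factor of the response, 0.34 ± 0.14, and Ddit3 (CHOP), linked to lasting ER stress, 0.60 ± 0.26 with 2 of 4 libraries higher. None of these 5 passed.

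Summed over the list, sgAlg12 was at 4363, 4622, 4403 and 3966 CPM in replicates 1, 2 and 3 and IgG, and sgNT at 3459, 3615, 3375 and 3273 CPM. The log2 ratio was thus 0.33, 0.35, 0.38 and 0.28, without overlap between the groups. The means of the other 8 targets with 4 libraries went from -0.10 in sgHpse to 0.06 in sgB3gnt2, and for none of them did all libraries have the same sign. Of 82 targets 2 had any gene of this list called (2.44%), Alg12 and Dpm2, which is needed for the dolichol-linked mannose that Alg12 uses. The sgDpm2 fit rested on 3 libraries, because replicate 1 held fewer than 10 cells. For the summed list the mean log2 ratio was 0.41 in sgDpm2 and 0.34 in sgAlg12, ranks 1 and 2 of 74. In sgDpm2, compared with the same sgNT cells, Sdf2l1 had a log2 fold change of 0.76 ± 0.13, Pdia6 of 0.68 ± 0.14, Manf of 0.50 ± 0.11 and Pdia3 of 0.49 ± 0.088 (SE), and these 4 passed. Hspa5 was at 0.38 ± 0.14 in sgDpm2 and did not pass (SE, edgeR, adjusted p = 0.405).

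In sgPigp the fit rested on 2 libraries, replicate 3 with 14 cells and IgG with 31, because the other 2 held fewer than 10 cells. Prelid1, a mitochondrial lipid transfer protein, was at 279.5 and 377 CPM in these 2 libraries and at 489.5 and 459 CPM in sgNT (log2 fold change -0.64 ± 0.13, SE, edgeR, adjusted p = 0.00747). Rtraf, an RNA-binding factor, was at 176 and 205 CPM against 273 and 277 CPM (-0.65 ± 0.14, SE, adjusted p = 0.0161). Actg1, cytoplasmic actin, was at 3445 and 2927 CPM against 4363 and 3837 CPM (-0.46 ± 0.11, SE, adjusted p = 0.0452). In the 4 and 7 cells of replicates 1 and 2, which the fit did not use, Prelid1 was at 281 and 366 CPM against 408 and 426 CPM, also lower, while Actg1 was at 3830 and 4095 CPM against 3916 and 4146 CPM. With size factors of the RLE type in place of TMM none of the 3 lower genes passed, and Prelid1 was at -0.55 ± 0.13 (SE, edgeR, adjusted p = 0.107). The calls of Nupr1 and Batf3, both higher, rested on 1 cell each.

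In sgSt3gal4 the gene that passed was Klra3, an NK receptor gene, with no UMI in replicates 1 and 2. In replicate 3 it reached 32.4 CPM against 6.08 in sgNT, and in IgG 16.2 against 4.28 CPM, and 27 of its 38 UMIs came from St3gal4_gRNA2. It was therefore higher in 2 of 4 libraries, and without replicate 2, replicate 3 or IgG it did not pass.

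For the 7 targets without a call, the genes of smallest p among those that met the naming rule given below were as follows. The targeted genes were described above, and genes left out by that rule may have had a smaller p. None passed. In sgTgds Cd74, the invariant chain of antigen-presenting cells, had a log2 fold change of 1.65 ± 0.39 (SE, edgeR, adjusted p = 0.103), with UMIs in 21 of 462 cells and 39.0% of the UMIs in 1 cell. Markers of other cell types summed to 598 CPM in all sgTgds cells of replicate 2 and to 93.8 CPM in those used, against 80.1 CPM in sgNT. With the 198 cells put back, 47 genes passed in sgTgds and 14 in sgB3gnt4, against 0 in both without them. In sgMan1a2 Trav19, a T cell receptor variable gene, had 2.58 ± 0.60 (SE, adjusted p = 0.115), with UMIs in 10 of 272 cells, and 16 of its 18 UMIs were in cells of Man1a2_gRNA3.

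In sgHpse Fosb, a transcription factor of the immediate early response, was at 203, 202.5, 26.7 and 45.6 CPM against 107, 85.1, 21.3 and 25.8 CPM (0.87 ± 0.21, SE, edgeR, adjusted p = 0.205). It was higher in 4 of 4 libraries, and the 3 Hpse guides gave 1.88, 1.91 and 1.83 times the expected UMIs, within the 0.558 to 2.23 of single nontargeting guides. In sgUxs1 Ms4a4c, a membrane protein gene, was at 20.01, 11.6, 30.7 and 18.5 CPM against 6.55, 6.30, 9.17 and 19.8 CPM (0.93 ± 0.22, SE, edgeR, adjusted p = 0.348), higher in 3 of 4 libraries. In sgB3gnt2 Tm7sf3 had -0.93 ± 0.25, in sgB3gnt4 Haus7 had -1.12 ± 0.28, and in sgPigz Trat1 had 1.98 ± 0.56 (SE), with adjusted p of 0.9998, 0.602 and 1 in the same fit.

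None of the other 6 gene lists had a member past the threshold in any of the 10 targets. The list of N-glycan precursor assembly and transfer had 28 tested genes and medians from -0.22 in sgPigp to 0.10 in sgPigz. N-glycan trimming and branching (17 tested genes) ranged from -0.07 in sgAlg12 to 0.17 in sgPigp. The 26 tested genes of nucleotide sugars and glycosaminoglycans, such as the xylosyltransferases that use the product of Uxs1, had a median of -0.003 in sgUxs1. The 18 tested genes of lactosamine and sialic acid synthesis and their carriers had medians of -0.04 in sgB3gnt2, 0.02 in sgB3gnt4 and -0.05 in sgSt3gal4. The 22 tested genes of GPI synthesis had a median of -0.10 in sgPigp and 0.06 in sgPigz. For 14 mRNAs of GPI-anchored surface proteins the medians were -0.08 and 0.08. The median over all genes was -0.08 in sgPigp and between -0.01 and 0.01 in the other 9 targets.

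The states of the cells were described by the summed CPM of 9 marker lists, as the log2 ratio of target to sgNT within each library, with no test. A pair of target and list was counted when all its libraries had the same sign. Pigp had too few libraries. Of the 81 pairs of the other 9 targets 14 were counted, 6 higher and 8 lower (17.3%), while among all targets 121 of 666 were (18.2%). The share among the glycan targets was near this background. Not all of the 14 are described here.

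The cytotoxic list (granzymes, Prf1 and Nkg7) was lower than sgNT in all 4 libraries for 4 of the 9 targets, Tgds, Uxs1, Man1a2 and Pigz, and for 16 of all 74 targets (21.6%). In sgTgds it was at 5496, 5496, 5798 and 4902 CPM in replicates 1, 2 and 3 and IgG, against 6308, 6921, 9843 and 6183 CPM in sgNT. Every sgTgds value lay below every control value, at a mean log2 ratio of -0.41 ± 0.25 (SD, n = 4), the 4th lowest of the 74. For Uxs1 the mean was -0.26 ± 0.08, for Man1a2 -0.24 ± 0.22 and for Pigz -0.19 ± 0.16 (SD, n = 4), at ranks 11, 15 and 22 of 74 from the bottom. The median over the 74 targets was -0.13. The Man1a2 values in replicates 1, 2 and 3 and IgG were -0.21, -0.55, -0.05 and -0.15.

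In sgTgds the G1/S list of replication genes was higher in all 4 libraries, as in 5.41% of the 74 targets, with a mean of 0.14 ± 0.10 (SD, n = 4) at rank 71 of 74 from the bottom, and kept 1 sign in every alternative. In sgHpse it was lower in all 4 libraries, as in 13.5% of the targets, with a mean of -0.12 ± 0.11 (SD, n = 4), but not with per-cell shares, with thinned cells or without the most frequent nontargeting guide. In sgAlg12 and sgTgds the exhausted list was lower in all 4 libraries, as in 12.2% of the targets, with means of -0.10 ± 0.08 and -0.07 ± 0.08 (SD, n = 4). The sgAlg12 value in replicate 1 was -0.0043, and neither pair kept 1 sign with per-cell shares or with cells thinned to 3000 UMIs. In sgAlg12 the hypoxia and glycolysis list was lower in all 4 libraries, as in 16.2% of the targets, with a mean of -0.15 ± 0.08 (SD, n = 4), but not with thinned cells. In sgUxs1 and sgTgds the interferon list was higher in all 4 libraries, as in 12.2% of the targets, with means of 0.16 ± 0.16 and 0.20 ± 0.12 (SD, n = 4). The sgUxs1 values in replicates 1, 2 and 3 and IgG were 0.10, 0.39, 0.14 and 0.02, and the sgTgds pair did not keep 1 sign with per-cell shares.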

How the data were processed

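Sorted OT-I T cells were profiled by droplet 3′ single-cell sequencing with guide capture, in 4 libraries, each listed as a transcriptome and a guide sample. Per the labels and methods, the authors mapped reads to mm10 and called guides with Cell Ranger 3.1.0. The deposited values are raw UMI counts per gene and cell and guide UMI counts per cell. The 4 libraries held 142945121 to 155974184 gene UMIs. UMI counts were summed per target and library (at least 10 cells) and fitted with library and target as terms in edgeR 4.0.16 (TMM, quasi-likelihood, Benjamini-Hochberg adjustment over all genes). For speed the quasi-likelihood test was rebuilt from edgeR's own fitting functions and run on parts of the gene table in parallel. It was compared with glmQLFit and glmQLFTest at the same dispersion in a fit of the 10 targets and sgNT, for Alg12 and Uxs1, where both gave the same calls. The SE of a log2 fold change is its size over the square root of the F statistic. DESeq2 1.42.0 was run on the cells per guide and on the sums of the 10 targets and sgNT. CPM are shares of the summed UMIs, and ratios of state lists were taken after adding 1 CPM. Named genes were each target's own gene, up to 4 genes with an adjusted p under 0.05 by smallest p (else the 2 genes nearest to it), with a UMI in at least 5 cells, no more than 50% of the UMIs in 1 cell and 1 sign in at least 3 libraries, and list genes that passed. Other genes were named after their values were seen. Barcodes with several guides were left out, and no doublet caller was run. The rebuilt test was also tested on simulated data. Targets and gene lists were chosen with earlier results of these data known. Some marker genes, and pairs of 1 sign in the state lists that hold them, are not reported here.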

Additional observations from a re-analysis of the deposited data

Results flagged for a closer look

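For 8 values, each anti-PD-1 library lay on one side of sgNT and the IgG library on the other. The difference between treatments was not tested, and IgG had 1 library. Of the 81 pairs of target and state list with 4 libraries, 7 were of this kind (8.64%), while among all targets 96 of 621 pairs were (15.5%), so the share was no higher than this background. They are given as log2 ratios to sgNT. The effector cytokine list in sgAlg12 had a mean of 0.28 with anti-PD-1 and -0.44 in IgG. In sgB3gnt2 the effector memory and egress list had 0.31 and -0.0567, where the 3 anti-PD-1 libraries were at 0.262, 0.678 and 0.000997, the last of them almost at sgNT. The exhausted list in the same cells had -0.19 and 0.0542. The G1/S list in sgMan1a2 had -0.23 and 0.161, and the G2/M list in sgPigz -0.36 and 0.0447. The cytotoxic list in sgSt3gal4 had -0.30 and 0.0602. The hypoxia and glycolysis list in sgUxs1 had -0.09 and 0.0357. Ms4a4c in sgUxs1 was above sgNT in the 3 anti-PD-1 libraries and at 18.5 CPM in IgG, against 19.8 CPM in sgNT.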

How the results depend on the processing

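Of 475 recomputed values of 44 results, 353 kept their direction and side of the threshold or stayed within the limits set for a count, and 2 reversed. Another 73 moved beyond their limits, 37 no longer passed the threshold and 10 newly passed it. The expression fit without IgG is the same as that of the anti-PD-1 libraries only and was counted under both names. The reversals were of genes carried by 1 cell, Krt17 in sgAlg12, which with a library left out went from -0.85 without replicate 2 to 5.03 without IgG, and Batf3 in sgPigp with sums per guide (-2.76). The 13 calls over the 10 targets became 71 with cells of other types kept, 241 with no filter on low counts, 129 with sums per guide and 31 with DESeq2, and 6 to 11 with 1 library left out. With no filter on low counts the calls were 38 for Alg12, 16 for Man1a2, 18 for B3gnt2, 10 for B3gnt4, 15 for St3gal4, 31 for Tgds, 29 for Uxs1, 17 for Hpse, 22 for Pigz and 45 for Pigp. With cells of other types kept they were 4 for Alg12, 1 for Man1a2, 14 for B3gnt4, 2 for St3gal4, 47 for Tgds and 3 for Pigp. With sums per guide they were 14 for Alg12, 1 each for Man1a2, St3gal4, Uxs1 and Pigz, 5 for Tgds and 106, all lower, for Pigp. These sums treat guides of 1 library as separate samples, which are not independent replicates. With the anti-PD-1 libraries only they were 0 for St3gal4, 3 for Tgds and 2 for Uxs1. Man1a2 had 1 call with UMI limits of 3 median absolute deviations or at least 20 cells per sum, and Pigp 2 with RLE size factors. With at least 2 guide UMIs per cell, chosen after seeing the data, there were 4 calls for Alg12, 2 for Man1a2 and 4 for Tgds. DESeq2 on the 10 targets and sgNT, also chosen after seeing the data because the fit over all targets was not run, called 15, 1, 0, 1 and 14 genes for Alg12, Man1a2, St3gal4, Tgds and Pigp.

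Leaving out each library in turn gave 0 to 6 calls for Alg12, 0 to 2 for Man1a2, 0 to 1 for St3gal4, 0 to 3 for Tgds, 0 to 2 for Uxs1, 0 to 1 for Pigz and 4 to 5 for Pigp, which could not be fitted without replicate 3 or IgG. The 4 called ER folding genes in sgAlg12 became 0 to 2 with a library left out, and 2 with cells of other types kept, with the anti-PD-1 libraries only or with at least 2 guide UMIs. The median of that list stayed between 0.27 and 0.32 in all these fits. Of the targeted genes, 1 passed with cells of other types kept, with UMI limits, with at least 20 cells per sum, with at least 2 guide UMIs or with DESeq2, 2 with no filter or with sums per guide, and 0 to 1 with a library left out. No guide share was called in the alternatives, each with 1 IgG library, which says nothing of stability. The 14 state pairs of 1 sign became 21 to 26 with a library left out, where fewer libraries have to share a sign. Of the 14 pairs, 8 kept 1 sign with the mean of per-cell shares and 7 with cells thinned to 3000 UMIs, where 16 and 19 pairs were counted in all. The cause of the other changes was not tested. No paired analysis was possible because IgG had 1 library and the replicate numbers follow accession order. The 14 and 31 cells behind the sgPigp fit, and the UMIs of low genes such as Alg12, limit what could be detected.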
